A study of Mus musculus with 2 samples.

Results

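Sd1 is 1 of the 13 clusters of mouse testis cells named in the cell table of the study, and its members here are all cells that carry this name. It held 1570 of 12408 cells. In the wild-type (WT) library these were 513 of 5170 cells (9.92%, exact binomial 95% interval 9.12% to 10.8%), and in the Tex13a knockout (KO) library 1057 of 7238 cells (14.6%, 13.8% to 15.4%). The study describes Sd1 as a mixture of spermatocytes and early spermatids. In the order of the cluster names it stands between Sc2, the later of the clusters of spermatocytes, and Sd2, the next cluster of spermatids.

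The WT cells came from adult C57BL/6 males (C57BL/6N in the study's methods) with an intact Tex13a gene. The KO cells came from males of the same strain in which CRISPR/Cas9 had removed the whole reading frame of the X-linked gene Tex13a. For each genotype, 3 testes of 3 mice were digested with collagenase I, pooled without a stated sort, and captured on barcoded beads in microwells as 1 library. With n = 1 library per genotype, there is no replicate, the cells of a library are not replicates, and an effect of genotype and a difference between the 2 pools cannot be told apart. All intervals given are 95% intervals that cover counting error only.

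At the end of meiotic prophase a spermatocyte takes its paired chromosomes apart, builds a spindle and passes through both meiotic divisions in quick succession, to give haploid round spermatids that start to form an acrosome. Cyclin A1, the product of Ccna1, is an A-type cyclin of the germ line that mouse spermatocytes need to enter the first of these divisions. The X and Y chromosomes are silenced in pachytene spermatocytes, and much of this repression persists into spermatids.

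The values are unique molecular identifiers (UMIs), each standing for 1 captured RNA molecule, summed over the cells of a cluster in a library and scaled to a common total as CPM. The files allowed 5476 gene symbols to be tied to their row, and these carried 85.0% of the Sd1 UMIs in WT and 84.8% in KO. The genes Cdk1, Plk1, Aurkb and Ccnb1 were not among them and are not analysed here. Sd1 held 5287593 UMIs in WT and 12226633 in KO. A median Sd1 cell had 7196 UMIs in WT and 8647 in KO, against 11862 and 11467.5 in Sc2, and 6603 and 6698 in Sd2. No cell barcode was shared by both libraries (0 barcodes).

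The row taken as Tex13a had 16 UMIs in 12 Sd1 cells of the WT library, or 3.03 CPM (1.73 to 4.91), with 4.36 CPM in Sc2 and 12.4 CPM in Sd2. In KO it had 0 UMIs in Sd1, which allows up to 0.245 CPM. The symbol could stand for 7 rows and the 1 row without a KO UMI was taken, so the 0 in KO does not check the label.

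Ccna1, the given marker of the cluster, was higher in Sd1 than in either neighbour in both libraries. In WT it stood at 126 CPM in Sc2, 498 CPM in Sd1 (479 to 518) and 363 CPM in Sd2. In KO it stood at 143 CPM in Sc2, 480 CPM in Sd1 (468 to 493) and 346 CPM in Sd2. The level in Sd1 was thus 3.94 times that in Sc2 in WT and 3.37 times in KO, but only 1.37 and 1.39 times that in Sd2, with intervals of the log2 ratio over Sd2 of 0.35 to 0.56 and 0.40 to 0.55. Ccna1 was thus high in these cells, and it separates them from Sc2 more than from Sd2. Far from Sd1 the transcript was scarce, at 32.3 CPM in spermatogonia (Sg) and 16.2 CPM in the spermatid cluster Sd8 of WT.

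Nearly every Sd1 cell held a Ccna1 UMI, 94.7% in WT and 95.5% in KO. After each cell was thinned to 3000 UMIs the share was 78.9% in WT and 74.4% in KO, against 62.0% and 63.0% in Sd2 and 21.3% and 24.6% in Sc2. Where Ccna1 was scarce, the thinned share was 5.94% in WT and 4.95% in KO in Sg, and 4.05% and 4.21% in Sd8, so that the shares in Sd1 stood far above both. The median unthinned cell had 6133 and 5859 UMIs in Sg, and 5254 and 5269.5 in Sd8. Over the 13 clusters of both libraries (26 points, which share libraries and depth), the levels most like those of Ccna1 belonged to 4930526F13Rik (Pearson r of 0.990), Pdzd9 (0.986), Gm7444 (0.985), Tmem106a (0.984) and Akirin2 (0.981).

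**Figure D1:**
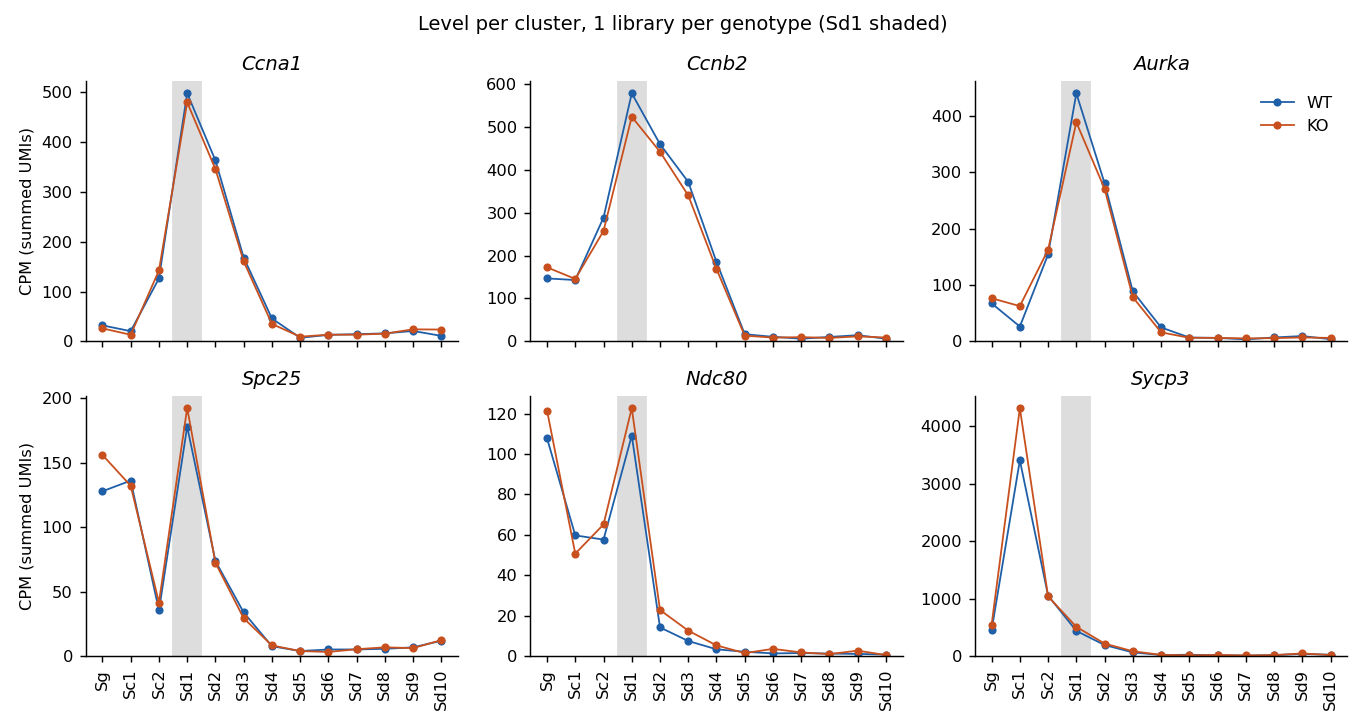
Level in CPM (vertical axes, linear) of Ccna1, Ccnb2, Aurka, Spc25, Ndc80 and Sycp3 over the 13 clusters in the order of their names (horizontal axis, Sd1 shaded), with 1 point per library and lines joining WT (blue) and KO (orange). Ccna1 peaks in Sd1 at 498 CPM in WT and 480 CPM in KO, whereas Sycp3 is already at 441 CPM in Sd1 of WT after its higher level in Sc2.

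Genes of the cell division machinery formed the clearest group on the side of Ccna1. A list of cyclins, division kinases and their regulators had 32 members, of which 12 could be read, and 8 of these 12 had their highest level of all 13 clusters in Sd1 in both libraries, namely Aurka, Aurkc, Bora, Ccna1, Ccnb2, Cdc25a, Cdkn3 and Haspin. Among the 4770 genes with at least 20 UMIs over Sc2, Sd1 and Sd2 in each library, 14% had their highest level in Sd1. All 12 were higher in Sd1 than in Sd2 in both libraries, though for Arpp19, Ccne2, Cdkn3 and, in WT, Cdc25a the difference was within counting error. The differences were small, and none of the 12 (0) was at least 2-fold higher than Sd2, against 4.3% of all genes read. The median log2 ratio over Sd2 of all genes read was -0.01 in WT and -0.02 in KO. At least 2-fold above Sc2 in both libraries were 6 of the 12, against 7.32% of all genes read, and at least 2-fold below Sc2 were 2 of the 12, against 12%. The list's median log2 ratio over Sc2 was 1.05 in WT and 0.98 in KO, while the median of all genes read was -0.12 and -0.09. Ccna1, the given marker of the cluster, is counted in the 8, in the 6 and in the list's medians. These values are therefore not independent of the marker.

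Aurka, a kinase that matures centrosomes and the spindle poles, stood at 154, 440 and 281 CPM in Sc2, Sd1 and Sd2 of WT, and at 163, 389 and 271 CPM in KO. Ccnb2 encodes cyclin B2, a partner of the kinase that drives entry into division, and its WT levels were 288, 578 and 460 CPM. Cdc25a, a phosphatase that activates cyclin-dependent kinases, had 28.6 CPM in Sc2, 155 CPM in Sd1 and 145 CPM in Sd2 of WT. Its step thus lay between Sc2 and Sd1, and the log2 interval of Sd1 over Sd2 in WT ran from -0.08 to 0.27. The same held for Cdkn3, a phosphatase of cyclin-dependent kinases, at 286, 894 and 867 CPM, and its difference between Sd1 and Sd2 was within counting error in both libraries. Haspin, a kinase that marks histone H3 at centromeres, had 305, 652 and 605 CPM in WT.

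The list also held genes that were lower in Sd1 than in Sc2. Ccne2 encodes cyclin E2, which acts with Cdk2, and had 113 CPM in Sc2 and 5.30 CPM in Sd1 of WT, with 103 and 4.58 CPM in KO. Arpp19, an inhibitor of the phosphatase that undoes division phosphorylation, stood at 154 CPM in Sc2, 47.8 CPM in Sd1 and 41.3 CPM in Sd2 of WT. Cdkn2d, an inhibitor of cyclin-dependent kinases, was also lower, at 171, 110 and 57.3 CPM.

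Upstream sequences of division genes were taken from RefSeq on GRCm38.p6, where 27025 genes had at least 1 start. The last 130 bases before the start are printed for Ccna1 and for 4 division genes that were higher in Sd1 than in either neighbour, to show the letters that a search for short motifs met. All 5 genes lie on the minus strand, and each run reads 5′ to 3′ towards the start, at chr3:55055056-55055185 for Ccna1, chr9:70421555-70421684 for Ccnb2, chr2:172370571-172370700 for Aurka, chr4:118437344-118437473 for Cdc20 and chr2:69206214-69206343 for Spc25. Capitals mark a match on either strand to 1 of 5 searched motifs. These are the CCAAT box (CCAAT), the cell cycle homology region in its common form (TTTGAA) and in a variant (TTCGAA), the core of a Myb site (TAACNG), and the cyclic AMP response element, whose letters are TGACGTCA.
Ccna1: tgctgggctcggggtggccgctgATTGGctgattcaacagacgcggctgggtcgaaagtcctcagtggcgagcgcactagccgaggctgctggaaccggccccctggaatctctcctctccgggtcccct
Ccnb2: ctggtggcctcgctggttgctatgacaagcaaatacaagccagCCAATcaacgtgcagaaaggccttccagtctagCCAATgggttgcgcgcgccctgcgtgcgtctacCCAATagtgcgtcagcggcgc
Aurka: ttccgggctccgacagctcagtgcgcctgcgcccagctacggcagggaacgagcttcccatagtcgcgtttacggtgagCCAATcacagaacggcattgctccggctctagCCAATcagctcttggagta
Cdc20: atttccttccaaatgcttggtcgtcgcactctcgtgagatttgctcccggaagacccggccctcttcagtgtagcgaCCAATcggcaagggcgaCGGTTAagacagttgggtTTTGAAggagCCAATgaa
Spc25: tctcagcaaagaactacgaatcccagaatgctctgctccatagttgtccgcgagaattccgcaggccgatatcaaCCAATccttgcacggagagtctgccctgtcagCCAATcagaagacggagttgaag

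CCAAT was met in each of these 5 windows, on the reverse strand in Ccna1 and 3 times in Ccnb2, while Ndc80, Nusap1, Nolc1, Chdh and Gm40332, also higher in Sd1 than in either neighbour, had 0 matches in their 250 bases. Over the 250 bases before the start, 33.8% of all 32851 promoters held it. The 12 division genes read had 10 members in the promoter table, and 7 of these 10 held CCAAT, where 40.4% of the 3579 matched genes among all those read did. TTTGAA stood in 5252 of all promoters, TAACNG in 19.8% of them, TGACGTCA in 1.55% and TTCGAA in 1.34%. Matches to different motifs were counted apart, also where they overlap. Of the kinetochore genes 9 of 17 held CCAAT, of the spindle genes 5 of 14, and of the genes at least 2-fold above both neighbours 3 of the 6 with an entry. The genes were picked with their levels known, and the 5 printed windows are a choice from a larger set of searched genes. CCAAT in all 5 is therefore no result about division genes. These matches describe the letters and show no site.

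Genes of the kinetochore and the spindle were mostly higher in Sd1 than in Sd2. Against Sc2 the kinetochore genes were on both sides, and most spindle genes were higher. The kinetochore and centromere list had 21 readable genes of 44, of which 18 were higher in Sd1 than in Sd2 in both libraries and 8 were at least 2-fold higher, against 4.3% of all genes read. Against Sc2, 4 of the 21 were at least 2-fold higher and 4 at least 2-fold lower, where 7.32% and 12% of all genes were. Its median log2 ratio over Sd2 was 0.77 in WT and 0.67 in KO, where that of all genes read was -0.01 and -0.02. Over Sc2 its median was 0.00 in WT and -0.03 in KO. None of its members was at least 2-fold lower than Sd2 (0 of 21), against 17.8% of all genes read.

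Cenpe, a motor that carries chromosomes to the spindle equator, stood at 124, 574 and 316 CPM in Sc2, Sd1 and Sd2 of WT, and at 137, 637 and 372 CPM in KO. Cenpf, a large kinetochore protein, had 265, 585 and 322 CPM in WT. Sgol2a, a shugoshin that protects cohesion at centromeres, had similar levels in Sc2 and Sd1, with 207 and 233 CPM in WT, and had 57.7 CPM in Sd2. Cdca8, which encodes the passenger complex member borealin, was of the same kind at 394, 356 and 83.6 CPM. Cenpq, a member of the inner kinetochore, was already lower in Sd1 at 35.2 CPM, from 156 CPM in Sc2. The list thus held genes with a peak in Sd1, genes that shared the Sc2 level, and genes that were lower than in Sc2.

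The spindle and centrosome list had 17 readable genes of 46, and 15 of them were higher in Sd1 than in Sd2 and 14 higher than in Sc2 in both libraries. Its median log2 ratio was 0.51 in WT and 0.46 in KO over Sd2, where that of all genes read was -0.01 and -0.02. At least 2-fold higher than Sd2 were 5 of the 17 and at least 2-fold lower 2, against 4.3% and 17.8% of all genes. Against Sc2, 2 were at least 2-fold higher and 0 lower, where 7.32% and 12% of all genes were. Of the 17, 7 had their highest level of all clusters in Sd1, against 14% of all genes read. Nusap1, a microtubule-bundling protein of the spindle, stood at 86.5, 223 and 130 CPM in WT and at 106, 248 and 159 CPM in KO. Prc1, which bundles microtubules of the central spindle, was higher in Sc2, at 493, 373 and 151 CPM in WT. Tex14, needed for the bridges between germ cells, had 72.4, 100 and 42.0 CPM.

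Checkpoint and anaphase-promoting complex genes did not stand out as a group against Sc2, and most were higher in Sd1 than in Sd2. Of 11 readable genes of 32, 2 were at least 2-fold higher than Sc2, against 7.32% of all genes read, and 2 at least 2-fold lower, against 12%. At any size, 4 of the 11 were higher than Sc2 in both libraries and 6 were lower. Against Sd2, 7 were higher and 3 lower. The median log2 ratio over Sd2 was 0.32 in WT and 0.35 in KO, where that of all genes read was -0.01 and -0.02. At least 2-fold higher than Sd2 was 1 and lower 0, against 4.3% and 17.8% of all genes. Anapc10, a subunit of the complex, stood at 44.7, 128 and 102 CPM in Sc2, Sd1 and Sd2 of WT, and its ubiquitin-conjugating enzyme Ube2c at 32.9, 116 and 95.3 CPM. Cdc20, its activator, had 243, 320 and 186 CPM, and Pttg1, the separase inhibitor securin that it destroys, 506, 548 and 283 CPM. Both were closer to Sc2 than to Sd2. Subunits of the complex were also among the genes lower than in Sc2. Anapc11 stood at 443, 324 and 259 CPM in WT, Anapc13 at 260, 183 and 195 CPM, and Anapc16 at 49.0, 21.2 and 30.0 CPM. Zwilch, a checkpoint protein of the kinetochore, stood at 79.9, 58.4 and 12.4 CPM in KO. Of 14 readable cohesin and condensin genes of 25, 9 were higher and 4 lower than Sc2 in both libraries, and 9 and 4 against Sd2. At least 2-fold higher than Sc2 were 2 and lower 0, against 7.32% and 12% of all genes read. Against Sd2 these counts were 2 and 2, where 4.3% and 17.8% of all genes were. As examples that do not stand for the list, the condensin gene Smc4 stood at 4569, 3324 and 1629 CPM. Rec8, the meiotic cohesin, was scarce in Sc2 at 1.55 CPM, with 7.19 CPM in Sd1 and 40.2 CPM in Sd2.

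**Figure D2:**
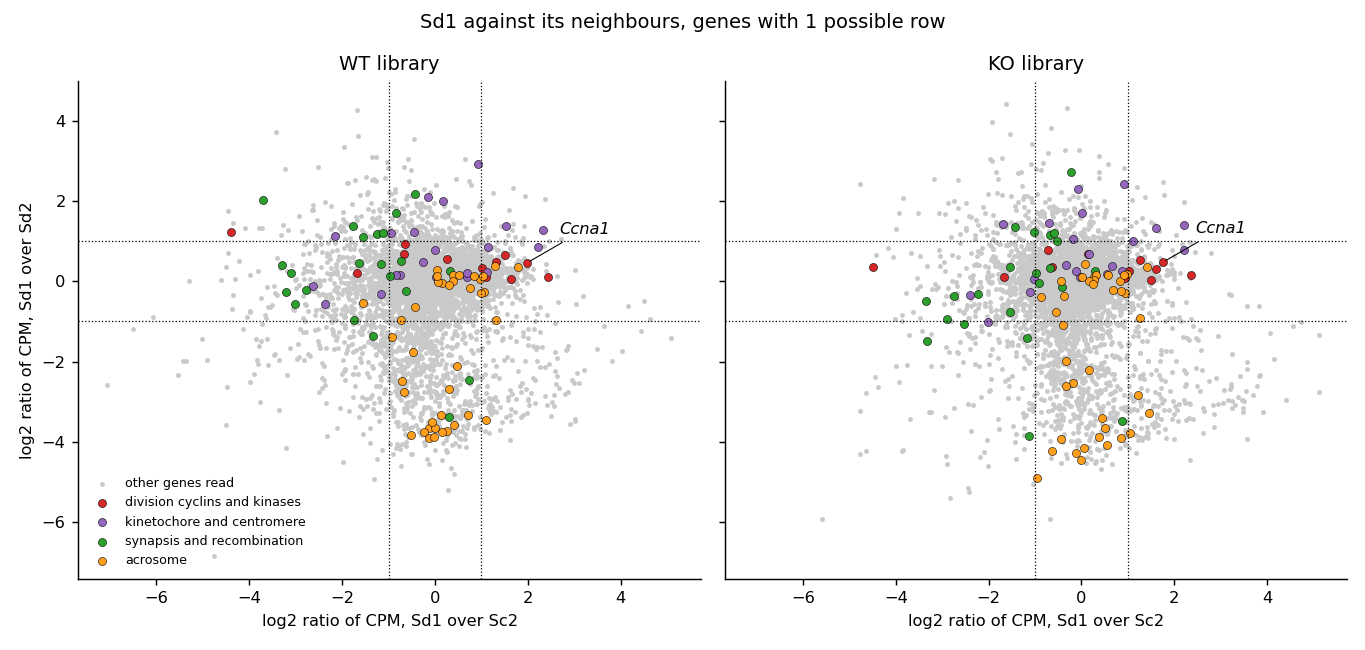
Log2 ratio of Sd1 over Sc2 (horizontal axis) and over Sd2 (vertical axis) for the genes read (grey) and for 4 lists (coloured), in WT and KO, with dotted lines at 2-fold. The division genes lie above 0 against Sd2, with medians of 0.47 in WT and 0.32 in KO, and the acrosome genes reach far below 0, with medians of -0.97 and -0.93.

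Few genes stood well above both neighbours. Of 4770 genes, 10 (0.21%) were at least 2-fold higher in Sd1 than in Sc2 and in Sd2 in both libraries, and they were Gm40332, Chdh, Nolc1, Tpx2, Spc25, Nudcd1, Trpm8, Incenp, D030028A08Rik and 5830444B04Rik. 4 of the 10 had their highest level of all clusters in Sd1. Members of the kinetochore list among them were Spc25 and Incenp (2 of 21), and of the spindle list Tpx2 (1 of 17).

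Spc25, a subunit of the complex that ties kinetochores to microtubules, had 35.4 CPM in Sc2, 178 CPM in Sd1 and 73.8 CPM in Sd2 of WT, and 41.6, 192 and 72.5 CPM in KO. Its partner Ndc80 was nearer to Sc2, with 57.7, 109 and 14.2 CPM in WT, which is 7.60 times its Sd2 level. Incenp, the scaffold of the chromosomal passenger complex, stood at 55.1, 161 and 61.4 CPM in WT and at 59.2, 181 and 72.5 CPM in KO. Tpx2, which activates Aurora A on spindle microtubules, had 75.4, 153 and 39.1 CPM. All 4 genes serve the spindle or the attachment of chromosomes to it.

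Others of the 15 genes that ranked highest above both neighbours have roles outside the spindle. Chdh, choline dehydrogenase of the mitochondrion, had 6.89, 22.3 and 4.38 CPM in WT and 10.1, 25.9 and 6.02 CPM in KO. Nolc1, a nucleolar phosphoprotein, had 45.6, 123 and 47.5 CPM in WT, and Kdm1a, a histone demethylase, 123, 247 and 124 CPM. Smc2, a condensin subunit, went from 122 CPM in Sc2 to 235 CPM in Sd1 and 64.3 CPM in Sd2. Syne2, a protein that links the nucleus to the cytoskeleton, had 10.3, 67.9 and 32.5 CPM, and Trpm8, a cold-sensing channel, 2.95, 11.5 and 2.56 CPM. The rest were Gm40332, Maml3, Nudcd1, Slc22a21 and Tmem127, at 9.65 to 248 CPM in Sd1 of WT.

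Genes below both neighbours were more frequent, 82 of 4770 (1.72%). Fbxo15, an F-box protein, had 31.1 CPM in Sc2, 1.89 CPM in Sd1 and 11.3 CPM in Sd2 of WT, and 1.15 and 6.20 CPM in Sd1 and Sd2 of KO. Pus7l, a pseudouridine synthase, had 0 UMIs in Sd1 of WT, which allows up to 0.567 CPM, against 14.2 CPM in Sd2. Hba-a1, an alpha globin of red blood cells, stood at 87.2, 0.567 and 4.02 CPM in WT and at 37.9, 2.62 and 48.9 CPM in KO. The globin levels differed between clusters in another way in each library, and the part of red cell RNA in them was not tested. The others that the rule names were 6030458C11Rik, Appl2, Ice1, Jarid2 and Msantd4.

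Most of what separates Sc2 from Sd2 was at an intermediate level in Sd1. Of the 1908 genes that differed at least 2-fold between Sc2 and Sd2 in WT, Sd1 lay between them in 1220 (63.9%), above both in 142 and below both in 546. In KO it lay between them in 1213 of 1793 (67.7%), above both in 127 and below both in 453. A set of 114 genes was at least 2-fold higher than Sc2 and at least 2-fold lower than Sd2 in both libraries, and 61 were lower than Sc2 and higher than Sd2.

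Genes of chromosome pairing and recombination were lower in Sd1 than in Sc2. Of 22 readable genes of 47, 11 were at least 2-fold lower than Sc2, against 12% of all genes read, and none (0) was as much higher, against 7.32%, with a median log2 ratio of -1.30 in WT and -1.08 in KO. Sycp1, the transverse filament of the synaptonemal complex, stood at 1366, 147 and 175 CPM in Sc2, Sd1 and Sd2 of WT, and at 149 and 193 CPM in Sd1 and Sd2 of KO. Sycp3, of its lateral element, had 1054, 441 and 195 CPM, and Hormad1, which marks unsynapsed axes, 926, 274 and 105 CPM. Sycp1 in Sd1 was thus close to, and slightly under, its Sd2 level, while Sycp3 and Hormad1 were still 2.26 and 2.61 times higher than in Sd2 of WT. Of the 22 genes, 2 were higher than Sc2 in both libraries, and they were Syce1 and Tex15. Syce1, a central element protein, had its highest level of all clusters in Sd1, at 661 CPM in WT, against 526 and 551 CPM. Tex15, a germ-cell protein needed for meiotic recombination, stood at 8.72, 10.8 and 114 CPM.

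The pachytene piRNA list had 15 readable genes of 28, of which 4 were at least 2-fold lower than Sc2 (12% of all genes read) and 1 at least 2-fold higher (7.32% of all). At any size, 6 were higher and 9 lower than Sc2 in both libraries, and 11 higher and 4 lower than Sd2. Of the 15, 5 had their highest level of all clusters in Sd1, against 14% of all genes read, so such a peak was not particular to the division lists. Piwil1, the Argonaute protein that binds pachytene piRNAs, stood at 532, 53.5 and 24.1 CPM in WT and at 441, 52.8 and 16.3 CPM in KO. Mybl1, a transcription factor of pachytene spermatocytes, had 136, 159 and 49.3 CPM, so that its Sd1 level was slightly above that in Sc2. Adad1, an RNA-binding protein of germ cells, was higher in Sd1 and Sd2 than in Sc2, at 343, 923 and 827 CPM. Of 9 readable histone genes of 21, 4 were at least 2-fold lower than Sc2, against the same 12% of all genes, among them H3f3b, a gene for histone variant H3.3, at 3925, 469 and 762 CPM.

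Against Sd2, many genes of the acrosome were lower in Sd1. Of 39 readable genes of 45, 18 were at least 2-fold lower in Sd1 than in Sd2 in both libraries, against 17.8% of all genes read, and none (0) was as much higher. The median log2 ratio over Sd2 was -0.97 in WT and -0.93 in KO, and over Sc2 0.15 and 0.26. Acrv1, an acrosomal antigen, had 15.8, 21.0 and 251 CPM in Sc2, Sd1 and Sd2 of WT, and 10.1, 18.4 and 276 CPM in KO. Spaca1, a membrane protein needed to form the acrosome, had 13.2, 21.6 and 218 CPM in WT. Both were 10.1 to 11.9 times lower in Sd1 than in Sd2 of WT.

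Other acrosome genes were at or above the Sd2 level in Sd1. Acrbp, which binds the protease acrosin, stood at 437, 858 and 827 CPM in WT, and Prss21, a serine protease of sperm, at 107, 373 and 290 CPM. The spermatid regulator list had 16 readable genes of 25. In both libraries, 5 were higher and 9 lower than Sc2, and 5 higher and 8 lower than Sd2. At least 2-fold higher than Sc2 were 0 and lower 1, against 7.32% and 12% of all genes read. Against Sd2 these counts were 3 and 3, where 4.3% and 17.8% of all genes were. Crem and Tbpl1 are examples and do not stand for the list. Crem, an activator of spermatid genes, had 211, 289 and 422 CPM in WT. Tbpl1, a relative of the TATA-binding protein that spermatids need, had 526, 922 and 909 CPM. Pgk2, the autosomal stand-in for the X-linked Pgk1, had 185, 408 and 464 CPM. Crem was thus lower in Sd1 than in Sd2, Tbpl1 was at its Sd2 level, and Pgk2 lay close under it.

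Late spermatid transcripts were seen in Sd1 and in both neighbours and did not mark Sd1 by a higher level. Of 35 genes, 25 were lower and 5 higher than Sc2 in both libraries, and 23 lower and 4 higher than Sd2. At least 2-fold lower than Sd2 were 11, against 17.8% of all genes read, and 0 were as much higher, against 4.3%. Against Sc2, 0 were 2-fold higher and 0 lower, where 7.32% and 12% of all genes were. Prm1, a protamine that packs sperm DNA, stood at 5359, 3910 and 3759 CPM in Sc2, Sd1 and Sd2 of WT. It was seen in 99.6% to 99.9% of Sd1 cells, and in 99.5% to 100% of the spermatogonia, which do not make protamine. The share of Sd1 cells with a Prm1 UMI was thus about that in spermatogonia, and the part of free RNA in the Prm1 level was not tested. Summed over 35 genes, the list took 18908 CPM of Sd1 in WT and 17410 CPM in KO, and the part of these transcripts in the other values was not tested.

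Genes that ranked at the extremes against a single neighbour are given as examples, and the ranking itself fixed the direction of their differences. Foxj1, a transcription factor of cilia, had 0.844 CPM in Sc2, 12.9 CPM in Sd1 and 51.5 CPM in Sd2 of WT. Tex36, a testis-expressed gene, was at 15.3 CPM in both Sc2 and Sd1 and at 286 CPM in Sd2. Ranked highest over Sd2, Kif20b, a kinesin of cell division, had 112, 175 and 21.2 CPM, and Pou5f2, a POU-domain factor of germ cells, 177, 55.6 and 4.38 CPM.

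To place single Sd1 cells between their neighbours, a position was computed for each cell thinned to 3000 UMIs. It is the share of UMIs from 355 genes at least 4-fold higher in Sd2 than in Sc2, among UMIs from these and from 197 genes at least 4-fold higher in Sc2, so that 0 means Sc2-like and 1 means Sd2-like. List members were left out of both sets. The median position of Sd1 cells was 0.393 in WT (0.365 to 0.423) and 0.369 in KO (0.352 to 0.385). Sc2 cells had medians of 0.060 and 0.067, and Sd2 cells 0.912 and 0.901.

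Sd1 cells were spread widely. The middle range from the lower to the upper quartile ran from 0.281 to 0.582 in WT and from 0.262 to 0.576 in KO, where that of Sd2 in WT ran from 0.870 to 0.937. Position 0.2 to 0.4 held 42.3% of the Sd1 cells of WT and 45.9% of those of KO, and position 0.8 to 1 held 2.73% and 2.37%. Sd1 cells also had fewer UMIs from the score genes, a median of 56 of 3000 in WT and 58 in KO, against 123 and 116 in Sc2 and 137 and 133 in Sd2. The score genes were chosen as high in Sc2 or in Sd2 of these same data. This choice by itself favours fewer such UMIs in Sd1, so the difference is not read as a trait of Sd1. The part of the choice in the difference was not tested. A median cell had 31 UMIs of the Sc2 side and 21 of the Sd2 side in WT. No doublet caller was run, 50 Sd1 cells of WT and 129 of KO had over 20000 UMIs, and the part of doublets in this spread was not tested.

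**Figure D3:**
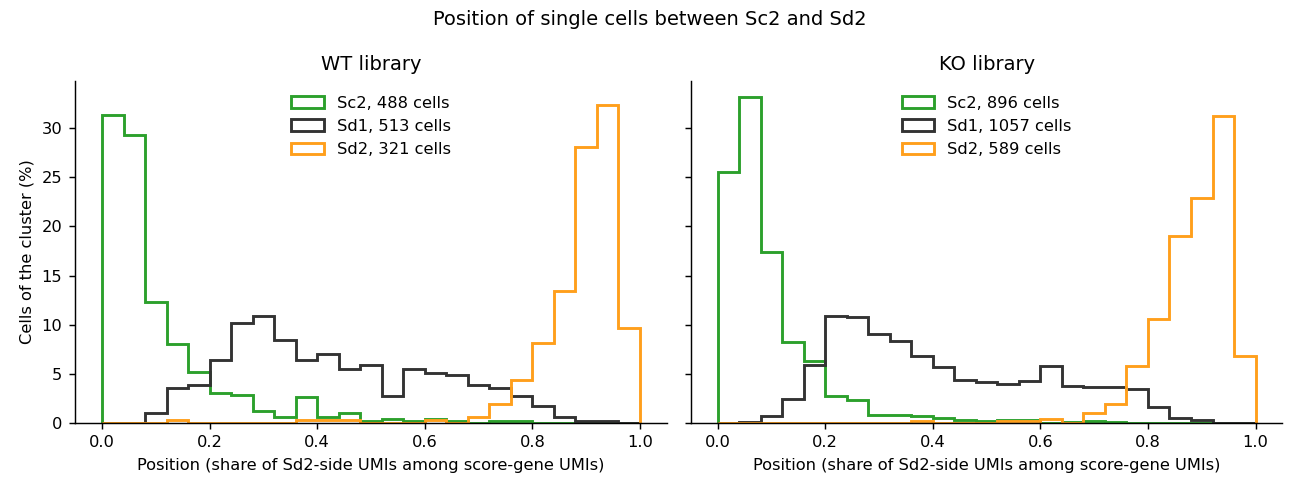
Distribution of the position of single cells (horizontal axis, 0 for Sc2-like and 1 for Sd2-like) as a histogram in percent of the cells of each cluster (vertical axis), for Sc2, Sd1 and Sd2 in WT and KO. Sd1 cells lie between the neighbours with medians of 0.393 in WT and 0.369 in KO.

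The Sd1 cells of both libraries together were then divided into 5 ranges of position with equal numbers, bounded at 0.247, 0.327, 0.442 and 0.620. Ccna1 was about level over these ranges, with 489, 503, 464, 542 and 499 CPM in WT and 482, 494, 480, 455 and 479 CPM in KO. Ccnb2 and Aurka also stayed high, from 550 to 511 CPM and from 475 to 404 CPM between the first and the last range in WT. Ndc80 and Smc2 had steeper courses. Ndc80 went from 143 to 59.9 CPM in WT and from 156 to 59.4 CPM in KO, and Smc2 from 326 to 81.7 CPM in WT and from 366 to 54.0 CPM in KO. The kinetochore list as a whole was less steep, with a sum of 5054 CPM in the first and 4054 CPM in the last range of WT, and 5348 and 4178 CPM in KO.

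Spc25, Tpx2 and Incenp, which stood above both neighbours in the cluster as a whole, were highest in the ranges near Sc2. Spc25 had 214 CPM in the first and 119 CPM in the last range of WT, Tpx2 had 198 and 71.7 CPM, and Incenp had 194 and 98.9 CPM. Sycp3 went from 543 to 321 CPM. Acrv1 and Spaca1 ran the other way. Acrv1 had 2.55, 1.83, 1.99, 28.6 and 70.8 CPM over the 5 ranges in WT, and 1.48, 6.06, 5.61, 29.5 and 63.9 CPM in KO. Spaca1 had 3.40 CPM in the first and 69.0 CPM in the last range of WT. They do not stand for the acrosome list, whose sum was 15647 CPM in the first and 16542 CPM in the last range of WT, and Acr, the gene of the protease acrosin, went only from 350 to 388 CPM. None of the genes named here was used in the position.

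Depth also moved along the position. The median cell had 9309 UMIs in the first range and 6206 in the fourth in WT, and 12371 and 6416.5 in KO, and the part of depth in these levels was not tested. Prm1 was lower in the first 2 ranges (2578 and 2479 CPM in WT) than in the other ranges (3987 to 5836 CPM). Crem was 287 CPM in the first and 343 CPM in the last range of WT.

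**Figure D4:**
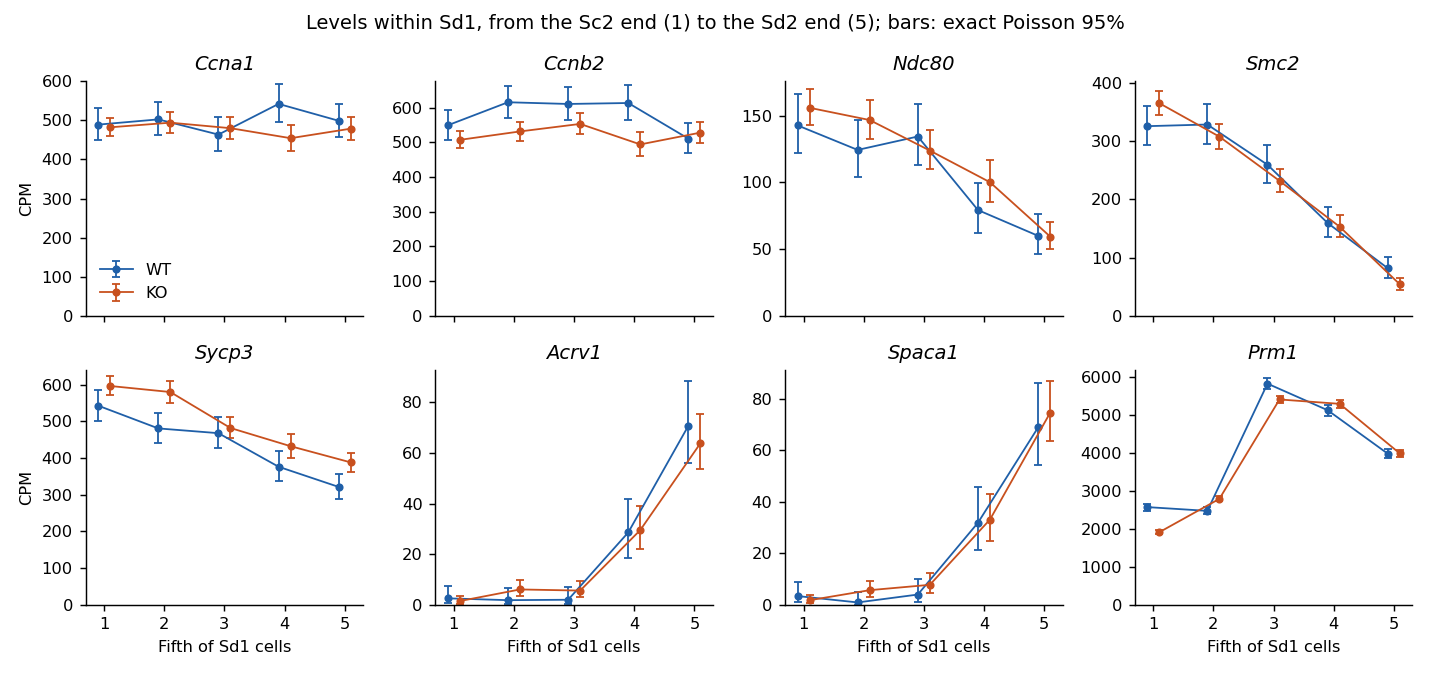
Level in CPM (vertical axes, linear) of 8 genes outside the position score over the 5 ranges of position within Sd1 (horizontal axis, 1 at the Sc2 end), with exact Poisson 95% intervals as bars, for WT (blue) and KO (orange). Ccna1 is level, Smc2 goes from 326 to 81.7 CPM in WT, and Acrv1 goes from 2.55 to 70.8 CPM.

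X-linked genes took a small share of the Sd1 transcripts. Of the genes with a chromosome, 149 lie on X, and they held 0.133% of the Sd1 UMIs of named genes in WT (0.130% to 0.137%) and 0.120% in KO (0.118% to 0.122%). In Sc2 the share was 0.143% in WT and 0.113% in KO, and in Sd2 it was 0.479% and 0.454%. Before Sc2 it was 1.20% and 1.24% in Sg, and in later spermatids it reached 2.65% and 2.59% in Sd7. Sd1 was thus within the low range of Sc2, and the order of Sc2 and Sd1 was not the same in both libraries.

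Of 106 X-linked genes read, 76 were at least 2-fold lower in Sd1 than in Sd2, against 17.8% of all genes read, and none (0) was as much higher, against 4.3%, with a median log2 ratio of -2.13 in WT and -2.19 in KO. Against Sc2, 22 were at least 2-fold higher and 2 lower, where 7.32% and 12% of all genes were, with medians of -0.25 and -0.14. Tsga8, a spermatid-specific gene, had 28.1, 97.6 and 457 CPM in Sc2, Sd1 and Sd2 of WT, and Ribc1, which encodes a microtubule protein of flagella, 5.63, 41.2 and 126 CPM. Akap4, a scaffold of the sperm tail that is made late, had 64.6, 51.1 and 70.1 CPM, with little difference between the clusters. The X-linked genes named here were chosen after their values were seen.

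Within Sd1 the X-linked share was higher in the later ranges of position. With the 35 X-linked score genes left out, it was 0.0504%, 0.0475%, 0.117%, 0.0980% and 0.103% over the 5 ranges in WT, and 0.0403%, 0.0571%, 0.0972%, 0.111% and 0.0971% in KO. Late spermatid transcripts such as Prm1 had the same step between the second and the third range, and their part in the X-linked share was not tested.

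**Figure D5:**
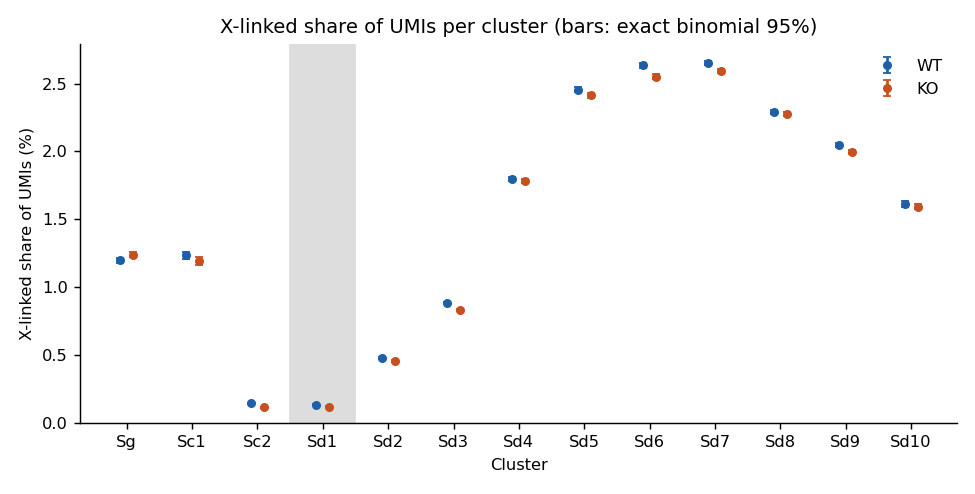
Percent of UMIs of named genes that came from X-linked genes (vertical axis, linear) in each of the 13 clusters (horizontal axis, Sd1 shaded), with exact binomial 95% intervals as bars, for WT and KO. Sd1 is at 0.133% in WT and 0.120% in KO, close to Sc2, and Sd2 is at 0.479% and 0.454%.

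The Sd1 cells of KO and WT were alike in most genes. Pearson's r of log2 CPM across genes, which are not independent replicates, was 0.995. Of 4272 genes with at least 50 UMIs in both libraries together, 7 (0.164%) were at least 2-fold higher and 8 (0.187%) at least 2-fold lower in KO, and 54.8% were below 0. With 1 library per genotype these are sizes and no calls. A gene 2-fold apart either way was as rare in Sd2 (0.361%) as in Sd1 (0.351%), and more frequent in Sc2 (1.0%).

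Ccna1 had a log2 ratio of KO to WT of -0.05 (-0.12 to 0.01) in Sd1. None of the 12 division genes (0) and none of the 21 kinetochore genes (0) was 2-fold apart. Of all genes read 0.351% were, so these counts do not set the lists apart. In the division list, 9 of the 12 were below 0, with a median of -0.06, and in the kinetochore list 4 of 21, with a median of 0.11. Ribosomal protein genes were lower in KO in 69 of 72 genes, though by a median of only -0.13.

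The largest difference was in 1700030C10Rik, which had 13 UMIs in WT and 314 in KO, a log2 ratio of 3.35 (2.59 to 4.31). It was as large in the neighbours, at 3.15 in Sc2 and 4.71 in Sd2, so it was not particular to Sd1. Zfp518a, a zinc finger protein, was at 1.18 (0.71 to 1.68), and Dnmt1, the maintenance DNA methyltransferase, at 0.76. On the other side stood Ctsl, a lysosomal protease made in quantity by Sertoli cells, at -1.34 (-1.94 to -0.76), and Tmsb4x, an actin-binding protein, at -0.89. The other genes at the extremes by the naming rule were Postn, 1700016P03Rik, Gm32872, Dpysl3 and Rbm7. Ctsl is also 1 of 4 readable Sertoli markers, whose sum was 14.6 CPM in WT and 4.66 CPM in KO, and its part in the Ctsl difference was not tested.

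Few markers of other cells had a row, and each of their lists summed to at most 69.8 CPM in Sd1. A row was tied to 7 of 21 spermatogonia, 4 of 10 Leydig, 4 of 13 peritubular, 5 of 15 macrophage and 3 of 11 blood markers. Sums were taken in Sc2, Sd1 and Sd2 only, so none stands beside a cluster of the cells marked. The spermatogonia markers with a row summed to 69.8 CPM in WT and 63.9 CPM in KO. In Sc2 they summed to 447 and 323 CPM, and in Sd2 to 68.7 and 59.7 CPM. Dazl, a germ-cell RNA-binding protein, had 13.8 CPM in Sd1 against 221 CPM in Sc2 of WT. Leydig markers summed to 10.8 and 12.0 CPM, peritubular markers to 5.86 and 6.22 CPM, macrophage markers to at most 8.59 CPM, and blood markers to 2.46 and 6.54 CPM. The neighbours had similar Leydig sums of 8.16 to 13.1 CPM and macrophage sums of 5.49 to 8.40 CPM. Sd1 also had less mitochondrial RNA than Sc2, with a median per cell of 0.507% in WT and 0.531% in KO, against 0.902% and 0.992%. Sd2 was as low, at 0.439% and 0.514%. Ribosomal protein genes took 43770 CPM in WT and 39878 CPM in KO, against 58601 and 53804 CPM in Sc2. In Sd2 they took about as much as in Sd1, at 43636 and 39447 CPM.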

How the data were processed

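Single-cell RNA-seq libraries of WT and Tex13a-KO mouse testes were analysed from the deposited files. The authors trimmed reads with fastp, aligned them with STAR (2.5.3a) to mm10, counted them on genes with featureCounts (1.6.2) and filtered and clustered cells in Seurat (3.2.3), as the submitters' processing notes and methods state. The deposited matrix holds raw UMI counts. The deposited cell table gives the cluster, the UMI count and the percent of mitochondrial UMIs, and a score from corrected counts that was not used. The authors' cell filter was kept and no doublet caller was run.

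The list of symbols has 25065 lines for 26758 rows. Rows were anchored by 30 mitochondrial symbols, whose sums gave the deposited percent in all 12408 cells, and only rows seen in under 5 cells were allowed to lack a symbol. Symbols with 1 possible row were used, of which 5383 (98.3%) had a chromosome. The UMIs of all cells of a cluster were added up within each library and scaled to CPM. Log2 ratios had a prior of 1 UMI shared by depth, with intervals conditional on the sum of both counts, sums had exact Poisson and shares exact binomial intervals, and a count of 0 stands for up to 3 counts. The libraries hold 45568532 and 67734689 UMIs. Work was done in Python (3.11.15) with numpy (2.4.6), pandas (2.3.3) and scipy (1.17.1), and scripts were tested on simulated data.

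No test was possible with 1 library per genotype. Members and gene lists were chosen with earlier results of these data known, and 8 list entries that did not belong to their lists were removed after it was known which symbols could be read, and before levels were read. Genes were named as Ccna1 and list members with at least 100 UMIs in Sd1, the 15 highest and 8 lowest against both neighbours, the 6 highest and lowest against each, the 5 highest and lowest in KO against WT, and the 5 most like Ccna1. Genes in very few UMIs among the 10 above both neighbours, and X-linked genes, were named after their values were seen. Alternatives were another mean, scaling, prior, minimum and row rule, totals without mitochondrial and late spermatid genes, matched positions, other score genes, and the 5% of cells with most UMIs left out.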

Additional observations from a re-analysis of the deposited data

How the results depend on the processing

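Of 104 alternative values, 64 kept the size of the reported one and 40 moved beyond its counting interval or by over 1.5 times. A turn in direction could be recorded only for the Ccna1 ratios, and 0 of these turned. Counts, shares and positions have no direction to turn. With all 13005 matrix rows read, named or not, 64 were at least 2-fold above both neighbours, 298 below both, 1265 above and 2502 below Sc2, 884 above and 2157 below Sd2, and, of 9743 rows, 36 higher and 27 lower in KO. With any row allowed to lack a symbol, a setting chosen after seeing the data, these counts were 2, 30, 174, 246, 96, 433, 2 and 2. A minimum of 100 UMIs gave 6 above both, 54 below both, and 2 higher and 1 lower in KO, and a minimum of 1 UMI gave 18 above both, and 217 higher and 173 lower in KO. The KO counts rest on genes with few UMIs: a prior of 10 UMIs gave 4 and 4, the mean of single-cell CPM 22 higher, the 5% of cells with most UMIs left out 13 higher, and cells matched on position 5 lower.

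The log2 ratio of Ccna1 over Sc2 was 2.22 in WT and 2.07 in KO with the mean of single-cell CPM, 2.19 and 1.90 without the 5% of cells with most UMIs, and 2.10 and 1.84 when centred on the median ratio. With score genes at least 2-fold apart, the median position was 0.565 in WT and 0.563 in KO, where Sc2 had 0.198 and 0.207, and Sd2 0.821 and 0.813, so the position has no fixed scale. The X-linked share was 0.122% in WT and 0.109% in KO without mitochondrial and late spermatid genes in the total, and in KO 0.132% as a mean over cells and 0.126% without the 5% of cells with most UMIs. No paired analysis was possible because each genotype has 1 library and no result comes from a test. Pools of 3 testes give no spread between animals, and levels under 1 CPM in Sd1 rest on few UMIs.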
